A study of Mus musculus with 24 samples.

Results

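The cytosolic ribosomal protein genes were followed across cultures of mouse muscle cells that differed in maternal diet and in medium. A gene was a member if its symbol began with Rpl or Rps and a digit, or was Rplp0, Rplp1, Rplp2 or Rpsa. The S6 kinases, Rps19bp1 and symbols of numbered pseudogenes were left out. The rule found 68 genes among the 22180 genes tested. Of these, 58 encode canonical proteins of the large subunit, the small subunit or the stalk, and 10 are paralogs or copies (Rpl3l, Rpl7l1, Rpl10l, Rpl22l1, Rpl39l, Rps27l, Rpl6l, Rpl32l, Rps4l and Rps23rg1), of which Rpl6l and Rps4l are annotated as pseudogenes.

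The cells were primary cells isolated from ICR mouse quadriceps muscle and differentiated in culture. Control offspring came from dams fed freely, and undernourished offspring from dams given 50% of the food of matched controls from gestational day 12.5 until delivery. After birth dams of both groups fed freely and litters were set to 8 pups. Glucose was 5.5 mM in the standard medium, which had 2% fetal bovine serum. The limited medium, used overnight, held less glucose (0.5 mM) and less serum (1%), with 1 mM glutamine and 0.5 mM carnitine. Each of the 4 combinations had 6 single-colour arrays, and 12 culture numbers, 6 per maternal diet, each had a standard and a limited array. The labels give neither the meaning of a culture number (mouse, litter or flask) nor the age or sex of the offspring. The p-values below therefore rest on the variation among these arrays, and some of it may be technical.

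The ribosome translates messenger RNA into protein. Each cytosolic ribosomal protein is built into the small subunit, which decodes the message, or the large subunit, which forms the peptide bond, and the acidic proteins of the stalk recruit translation factors. Ribosomal protein messages typically begin with a run of pyrimidines (the 5′ terminal oligopyrimidine, or TOP, motif), through which the nutrient-sensing kinase mTOR and the RNA-binding protein Larp1 control their translation. Muscle carries Rpl3l, a paralog of the large subunit protein Rpl3 that is largely restricted to heart and skeletal muscle.

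The annotated starts of the genes were read because a TOP motif would lie there. RefSeq windows (GRCm38.p6) were found for 53 of the 68 genes, which have 62 annotated starts, and each window held 15 bases before the start and 15 from the start on. The first 6 sequences belong to genes with a run of at least 7 pyrimidines somewhere in the window, and the last 4 to genes without one that appear in the results below. They are written 5′ to 3′ on the strand of the gene, and capitals mark the longest unbroken run of C and T, or the first of equally long ones as in Rps7, where it has at least 5 bases. In Rpl15, Rpl35, Rps10, Rps18 and Rps6 the marked run includes the annotated first base of the transcript, and in Rpl34 it lies wholly before that base.
Rpl15, chr14:18270972-18271001, minus strand: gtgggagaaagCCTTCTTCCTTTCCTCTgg
Rpl35, chr2:39005117-39005146, minus strand: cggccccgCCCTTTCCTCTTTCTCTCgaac
Rps10, chr17:27635230-27635259, minus strand: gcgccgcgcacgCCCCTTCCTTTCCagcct
Rps18, chr17:33955651-33955680, minus strand: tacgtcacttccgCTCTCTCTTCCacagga
Rps6, chr4:86857353-86857382, minus strand: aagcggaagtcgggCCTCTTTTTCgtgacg
Rpl34, chr3:130730384-130730413, minus strand: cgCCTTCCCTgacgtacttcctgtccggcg
Rpl3l, chr17:24727811-24727840, plus strand: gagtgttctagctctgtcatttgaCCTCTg
Rplp0, chr5:115559452-115559481, plus strand: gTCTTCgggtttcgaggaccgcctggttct
Rps3, chr7:99483695-99483724, minus strand: cttgcaagggtcgccgcgctgcgcggcgtc
Rps7, chr12:28635939-28635968, minus strand: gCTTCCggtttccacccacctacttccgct

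Such a run of at least 7 pyrimidines was present in 30 of the 62 windows (48.4%), against 6094 of 32841 windows (18.6%) over all annotated starts. It included the first transcribed base in 17 of the 30, lay wholly before it in 8 and wholly after it in 5, and over all starts it included that base in 1610 of the 6094. A stricter form, C at the first transcribed base followed by at least 4 pyrimidines, was met by 11 of the 62 (17.7%) and by 822 of all windows (2.50%). Both searches read the gene's strand only, and a window without a run says only that these letters are not next to that annotated start. Set beside the response, the median difference between limited and standard medium was 0.12 on the log2 scale for the 27 genes with a run (20 higher) and 0.12 for the 26 without (21 higher). The 2 classes are not matched on level, with medians of 9.53 and 7.41. A run counted wherever it lay in the window, so this comparison does not test the TOP motif itself.

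Most of the genes were on average at least as bright as the median gene. Values are RMA signal on a log2 scale, on which a difference of 1 is a doubling. Of the 68 genes, 54 had a mean over the 24 arrays at or above 6.02, the median of all genes. A group of 38 bright genes lay at 8 or more and 30 dim genes lay lower. That boundary was set after the values were seen, and it fell in a gap between Rpl7l1 at 7.50 and Rps18 at 8.12. The probe sets of different genes differ in brightness, so their order is not an order of expression. The array held 41 further probe sets for 25 of the members, 7 of them repeats of other sets, with mean levels from 3.53 to 12.8, and the brightest probe set stood for each gene. A further 14 symbols of the family, among them Rpl10, Rpl12, Rpl13a, Rpl23, Rps2 and Rps21, were measured only by probe sets that other genes share and are not counted as members.

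The bright genes moved together from array to array. After group means were removed, the median correlation between any pair of the 38 bright genes over the 24 arrays was 0.596 (703 pairs), against 0.103 among the 30 dim genes (435 pairs). The genes of a pair share the same arrays and their normalization. Counts of members that point one way, given below, are therefore not counts of separate observations. Rpl13 (r = 0.96), Rps3 (0.93) and Rpl23a (0.91) followed the median of the bright genes most closely among the 68, and Rpl22l1 (-0.65) and Rplp2 (-0.59) ran against it. Rpl13, Rps3 and Rpl23a are bright and enter that median themselves, while Rpl22l1 and Rplp2 are dim and do not.

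**Figure D1:**
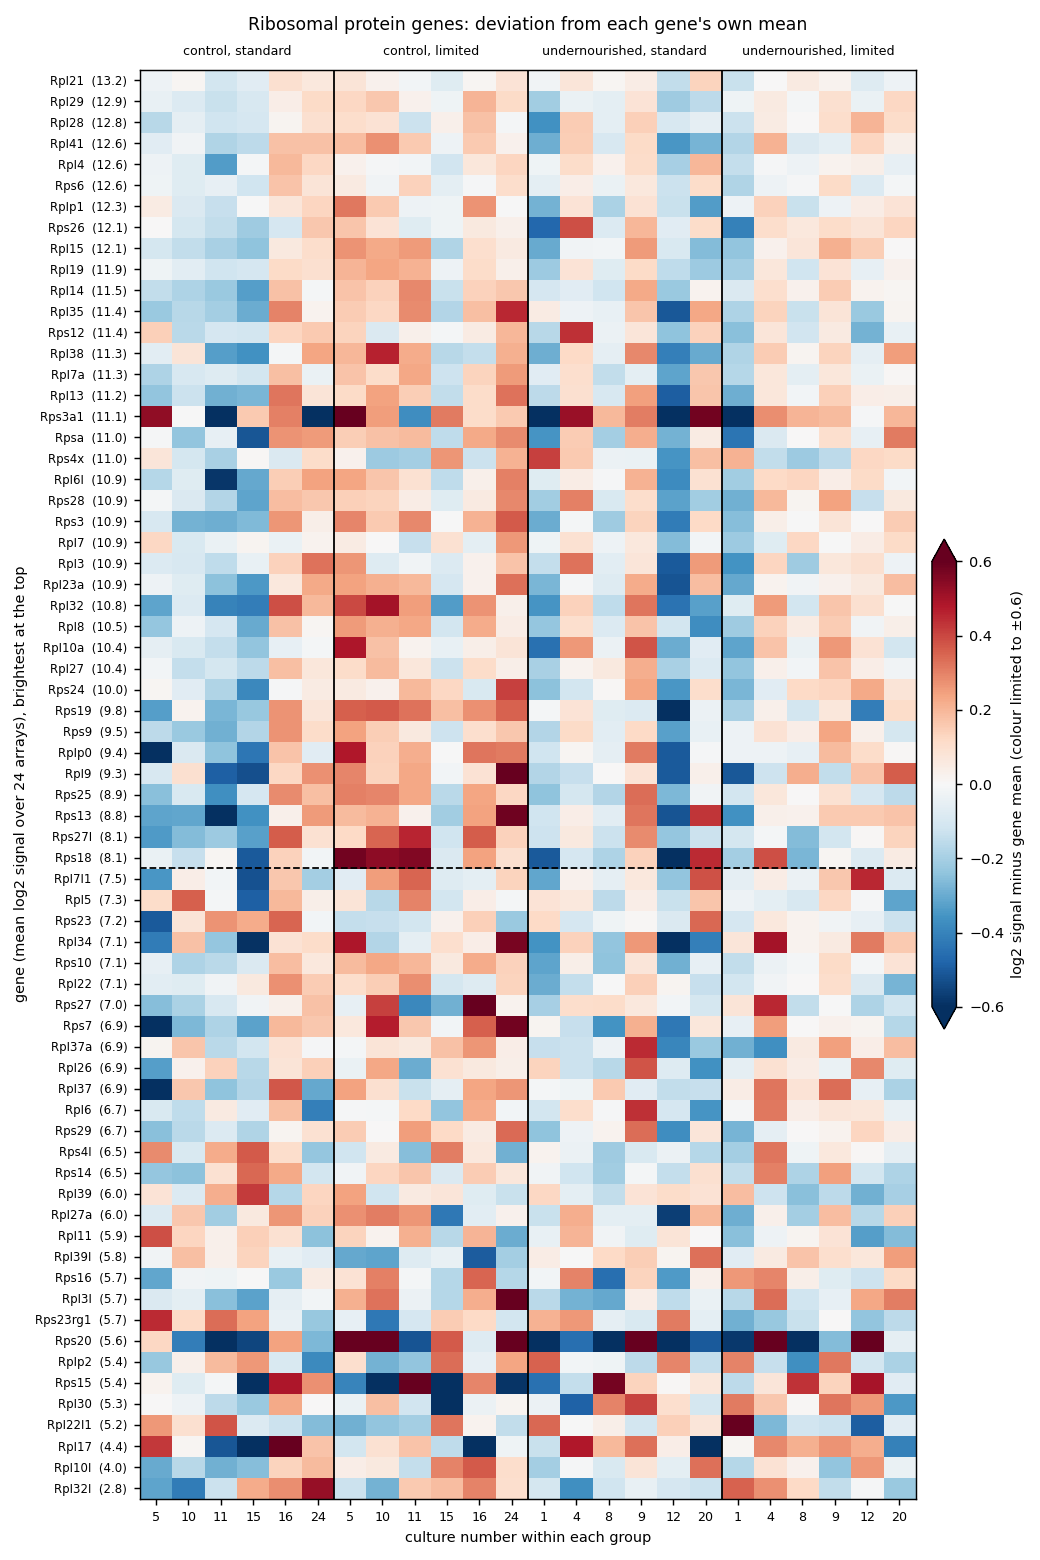
Log2 signal of each of the 68 genes minus its own mean over 24 arrays, one row per gene (mean level in brackets, brightest at the top) and one column per culture within each group; the dashed line separates genes with a mean of at least 8, and colours are limited to ±0.6. The undernourished standard array of culture 12 is blue across the bright genes (0 of 38 above their own mean) and the control limited array of culture 5 is red across them (38 of 38).

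The shared movement was read on each array as the median deviation of the 38 bright genes from their own means. Control standard arrays ran from -0.23 to 0.16 with a median of -0.08, and control limited arrays from -0.08 to 0.19 with a median of 0.16. In limited medium 5 of the 6 control arrays lay between 0.11 and 0.19, and culture 15 lay below 0. Undernourished standard arrays ran from -0.32 to 0.16 with a median of -0.02, and undernourished limited arrays from -0.20 to 0.09 with a median of 0.03. All 4 groups overlapped, and culture 1 was low in both media, at -0.20 on each array. RMA gives all arrays nearly the same distribution of values, so each deviation is relative to the other genes on the same array and a change in total RNA would not be seen. In bulk RNA, fewer cells of a type and less RNA per cell cannot be told apart.

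**Figure D2:**
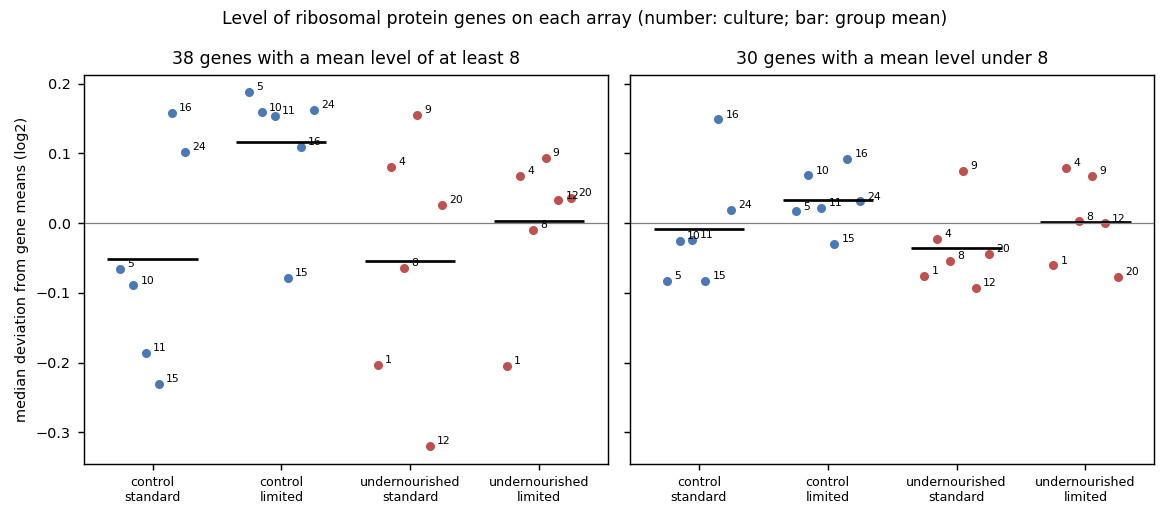
Median deviation from the gene means (log2) on each array for the 38 genes with a mean of at least 8 (left) and the 30 under it (right), with culture numbers beside the points and bars at group means. In the left panel 5 of 6 control limited arrays lie between 0.11 and 0.19, and the lowest array is the undernourished standard one of culture 12 at -0.32.

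The first comparison set limited against standard medium over both maternal diets. Glucose and serum changed together, so their parts cannot be told apart. No glutamine or carnitine level is given for the standard medium. Rpl3l was the only member to pass the main test, which did not pair arrays by culture number. It was higher in limited medium, and most other members leaned the same way by a small amount. At an adjusted p under 0.05, limma called 1 of 68 members, beside 1517 of all 22180 genes (6.84%). An unadjusted p under 0.05 was found for 19 members (27.9%), against 4504 of all genes (20.3%). These shares are not matched on level, and most members are brighter than the median gene. With dimmer genes than that left out, Rpl3l among them, limma called 5 of 54 members at an adjusted p under 0.05. Of all genes tested there it called 16.2%, so the members showed no excess of calls at that level. A fit with the culture number as a block, given as an alternative, called 6 members, beside 11.7% of all genes. They were Rpl3l, Rpl34, Rplp0, Rps3, Rps7 and Rps19, all higher in limited medium. Limited arrays were higher for 51 of 68 members (75%), against 51.8% of all genes, and the median difference was 0.12 against 0.01. Among bright genes the figures were 33 of 38 members and a median of 0.13, against 56.2% and 0.03 of the 4658 genes at that level. In 62 of the 68 members the difference was under 0.25 in size, and the median standard error was 0.08.

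Rpl3l, the muscle-restricted paralog of Rpl3, ran from 5.38 to 5.68 in control standard arrays (median 5.63) and from 5.52 to 6.30 in control limited arrays (median 5.91). Undernourished arrays ran from 5.39 to 5.74 (median 5.54) in standard and from 5.53 to 6.03 (median 5.79) in limited medium. Limited arrays reached higher in both diets, with overlap at the low end, and the limited array was higher in 6 of 6 control cultures and 4 of 6 undernourished cultures. The difference was 0.28 ± 0.080 (SE, 95% interval 0.12 to 0.45, a 1.22-fold rise, adjusted p = 0.0325 by limma). Its mean level of 5.70 lies below the median of all genes, and no detection call was used. The call was lost without any one of control cultures 5, 10 and 24 (adjusted p = 0.0669, 0.0693 and 0.0527) or undernourished cultures 4, 12 and 20 (0.102, 0.0827 and 0.0507), while the difference stayed between 0.24 and 0.32 whichever culture was left out.

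Rpl3 itself did not pass the test. It ran from 10.71 to 11.19 (median 10.80) in control standard and from 10.78 to 11.13 (median 10.86) in control limited arrays. In undernourished cultures the ranges were 10.36 to 11.19 (median 10.87) and 10.51 to 10.99 (median 10.88). The medium difference was -0.01 ± 0.08 (SE, 95% interval -0.18 to 0.17, adjusted p = 0.984), with limited arrays higher in 4 of 12 cultures. The remaining Rpl3 probe sets, with mean levels of 4.80 and 8.30, gave -0.26 and -0.20. Taken as a difference within each array, Rpl3l minus Rpl3 was 0.29 higher in limited medium and higher in 9 of 12 cultures (permutation test with 100000 shuffles of medium within diets, two-sided p = 0.004, adjusted p = 0.024 over 6 paralog tests). That call was lost without control culture 16 or 24 (adjusted p = 0.0608 and 0.0809) and without undernourished culture 1, 4, 8 or 20 (0.0575, 0.0940, 0.0692 and 0.105), and the difference kept within 0.23 to 0.34.

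The next smallest p-values did not pass the unpaired test, though Rplp0 and Rpl34 passed with the culture number as a block. Rplp0, the protein on which the stalk is assembled, ran from 8.75 to 9.56 (median 9.23) in control standard and from 9.39 to 9.87 (median 9.66) in control limited arrays, and from 8.89 to 9.71 (median 9.36) and 9.34 to 9.58 (median 9.38) in undernourished cultures. The control groups shifted with little overlap and the undernourished groups overlapped nearly throughout. Over both diets the difference was 0.28 ± 0.086 (adjusted p = 0.0521), with 10 of 12 cultures higher in limited medium. A dimmer Rplp0 probe set gave 0.07. Rpl34, a large subunit protein, had 0.35 ± 0.11 (adjusted p = 0.0607, 9 of 12 cultures), and Rps10, a small subunit protein, 0.17 ± 0.056 (adjusted p = 0.0693, 11 of 12). Rps23rg1, a retroposed copy of Rps23, pointed the other way at -0.24 ± 0.078 (adjusted p = 0.0635), higher in 3 of 12 cultures.

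By role, 24 of 32 large subunit genes were higher in limited medium, with a median of 0.10 and a range from -0.13 (Rpl39) to 0.35 (Rpl34). Of the 23 small subunit genes 19 were higher, with a median of 0.14. Of the stalk genes Rplp1 had 0.13 ± 0.06 (adjusted p = 0.24) and Rplp2 -0.01 ± 0.10 (0.959). Of genes with known special roles, Rps6, the substrate of the S6 kinases, differed by 0.00 ± 0.05 (95% interval -0.09 to 0.10), Rpl5 by -0.04 ± 0.08 (-0.20 to 0.12) and Rpl11 by -0.11 ± 0.07 (-0.26 to 0.04), the last pair being partners of the 5S RNA particle that binds Mdm2. Rpsa, a small subunit protein also described as the laminin receptor, had 0.12 ± 0.09 (-0.08 to 0.31).

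**Figure D3:**
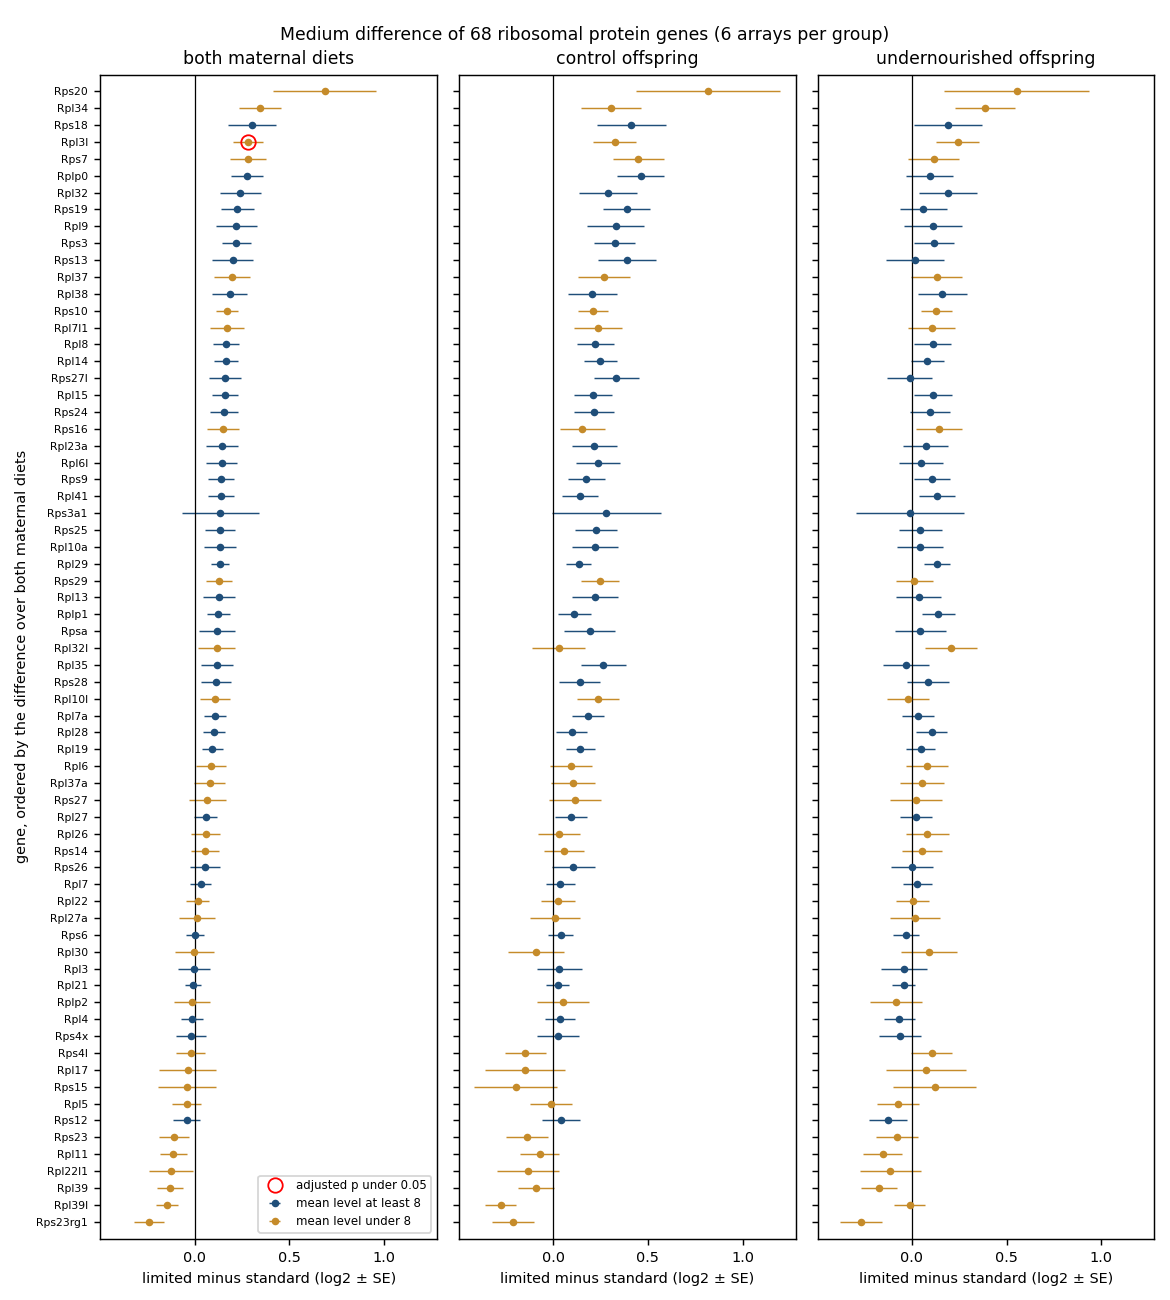
Limited minus standard medium (log2, ± SE from limma, 6 arrays per group) for each of the 68 genes over both maternal diets, in control offspring and in undernourished offspring, in one gene order and on one scale; colours give the mean level and the ring marks an adjusted p under 0.05. In this fit without the culture block only Rpl3l in the first panel is ringed, and all 38 genes with a mean of at least 8 lie above 0 in control offspring, against 29 in undernourished offspring.

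The paralogs did not share a direction. Rpl7l1, a relative of Rpl7, differed between media by 0.17 ± 0.09 (adjusted p = 0.286), and Rpl7 by 0.03 ± 0.05. Rps27l, a p53-inducible relative of Rps27, had 0.16 ± 0.08 (0.288), and Rps27 0.07 ± 0.10. Rpl10l, a retrogene known from the testis, had 0.11 ± 0.08 (0.476) at a mean level of 3.96. Rpl22l1, a relative of Rpl22, had -0.12 ± 0.11 (0.601), and Rpl22 0.01 ± 0.06. Rpl39l, known chiefly from male germ cells, had -0.14 ± 0.06 (0.141), and Rpl39 -0.13 ± 0.07 (0.28). Rps4l had -0.02 ± 0.08 and Rps4x, the X-linked gene it resembles, -0.02 ± 0.08. Within arrays, Rpl22l1 minus Rpl22 differed by -0.14 and Rps27l minus Rps27 by 0.09 between media, with adjusted p = 0.503 for each in the same permutation tests.

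**Figure D4:**
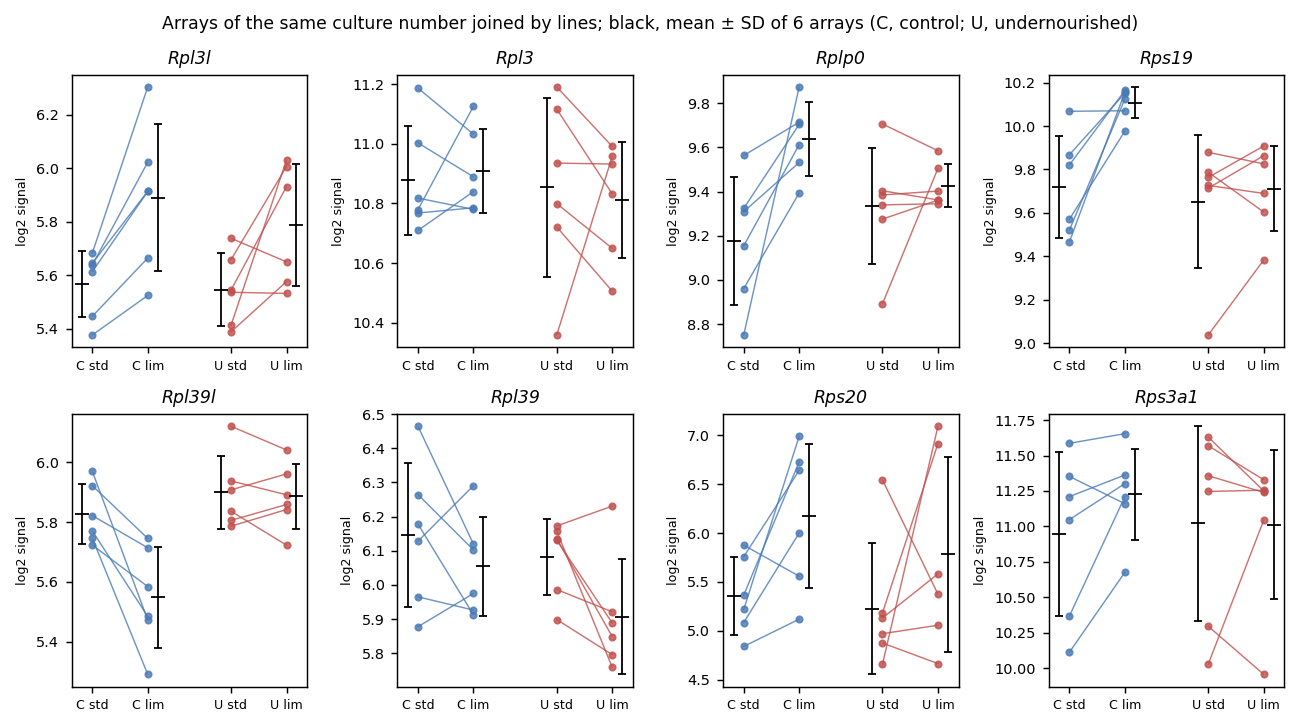
Log2 signal of 8 genes on every array, in standard (std) and limited (lim) medium, for control (C, blue) and undernourished (U, red) offspring, with arrays of a culture number joined and mean ± SD of 6 arrays in black; the vertical scales differ. The limited array is the higher for Rpl3l in 6 of 6 control and 4 of 6 undernourished cultures and the lower for Rpl39l in 6 of 6 control cultures, and Rps20 and Rps3a1 spread widely within groups.

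The medium was next compared within each maternal diet. In control offspring the bright genes all pointed upward, and no member passed the main test, which did not pair arrays by culture number. All 38 bright genes were higher in limited medium on average, against 58.9% of the 4658 genes at that level, with a median of 0.21 against 0.04. These genes moved together from array to array, so 38 is not a number of separate observations. In culture 24, 26 of the 38 were higher, and in culture 16, 12 were. Over the whole family 57 of 68 were higher and the median was 0.14. limma called 0 of 68 members, beside 76 of all genes (0.343%), and 19 members had an unadjusted p under 0.05 (all genes 13.1%). These shares too are not matched on level. With genes dimmer than the median gene left out, limma called 0 of 54 members and 1.34% of all genes tested there. In the main test the smallest p belonged to Rplp0 at 0.46 ± 0.12 (1.38-fold, adjusted p = 0.0898), higher in 6 of 6 control cultures. Rps7 at 0.45 ± 0.13 (adjusted p = 0.137) and Rps19 at 0.39 ± 0.12 (0.158), small subunit proteins mutated in Diamond-Blackfan anemia in humans, were also higher in 6 of 6. Rps3, a small subunit protein at the entry of the messenger RNA channel, had 0.32 ± 0.11 (0.175) and was higher in 5 of 6. Rpl39l had -0.28 ± 0.081 (0.126), with the limited array the lower in 6 of 6. The standard and limited arrays of each control culture number deviated together from their group means (correlations of 0.19 to 0.46 over all genes). With the culture number as a block, limma called 3 members, Rplp0 (adjusted p = 0.0441), Rps7 (0.0377) and Rps19 (0.0383), beside 2.48% of all genes, while Rps3 (0.0571) and Rpl39l (0.0569) did not pass. The block fit paired all 12 culture numbers, so its estimate of the spread also drew on the undernourished cultures. Dimmer probe sets did not repeat the rise of Rplp0 and Rps19 at the same size. Over both diets a dimmer Rplp0 set gave 0.07, against 0.28 for the set used. A dimmer Rps19 set gave -0.05, against 0.22, and the remaining Rps19 set held the same values as the one used. Unpaired but with arrays weighted by quality, limma called Rplp0 and Rps3 as higher and Rpl39l as lower, beside 1.24% of all genes.

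In undernourished offspring no member passed, with or without the block. Of the bright genes 29 of 38 were higher in limited medium with a median of 0.05 (all genes at that level 53.2% and 0.01), and over the family 50 of 68 were higher with a median of 0.05. limma called 0 of 68 members beside 324 of all genes (1.46%), and 3 members had an unadjusted p under 0.05 (all genes 13.4%). Those 3 were Rpl34 at 0.39 ± 0.16 (adjusted p = 0.253), Rps23rg1 at -0.27 ± 0.11 (0.261) and Rpl3l at 0.24 ± 0.11 (0.354). Rpl29, a large subunit protein, followed at 0.13 ± 0.067 (0.404) with 6 of 6 cultures higher, and Rpl39 at -0.17 ± 0.097 (0.468). Rplp0 differed by 0.09 ± 0.12 (95% interval -0.16 to 0.34), Rps7 by 0.12 ± 0.13 and Rps19 by 0.06 ± 0.12.

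Taken culture by culture, the family shifted in some cultures and hardly in others. The median difference over the 68 genes was 0.27 in control culture 5 (55 genes higher), 0.28 in culture 11 (56 higher), 0.22 in culture 10 (55 higher) and 0.13 in culture 15 (48 higher). It was 0.04 in culture 24 (41 higher) and -0.04 in culture 16 (27 higher), the cultures whose standard arrays already stood above the gene means. Among undernourished cultures it was 0.26 in culture 12 (60 higher) and lay between -0.08 and 0.05 in cultures 9, 20, 1, 4 and 8. Culture 12 was shifted about as far as control cultures 5, 10 and 11, and its standard array had the lowest family level of all 24. The standard array is subtracted in these differences, so its level and the shift are not separate results. Undernourished culture 1, with a family median deviation of -0.15 in standard medium, shifted by 0.004. The 6 culture medians averaged 0.15 ± 0.13 (SD) in control and 0.03 ± 0.12 in undernourished offspring, ranges that overlap.

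**Figure D5:**
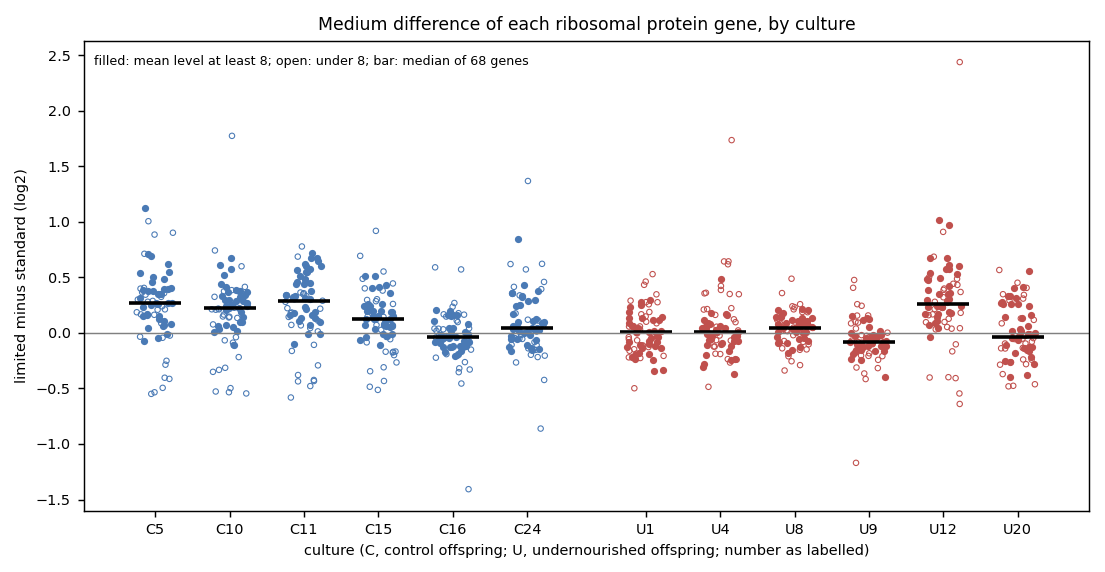
Limited minus standard medium (log2) of every gene in each culture, with filled points for a mean level of at least 8, open points under 8 and a bar at the median of 68 genes. The bars stand at 0.22 to 0.28 in control cultures 5, 10 and 11 and at 0.26 in undernourished culture 12, and between -0.08 and 0.13 in the other 8 cultures.

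Whether the response to medium differed by maternal diet was tested directly, and no gene passed. The undernourished effect minus the control effect had a median of -0.09 over the 68 members and was below 0 in 54 of them (36 of 38 bright genes), against a median of -0.01 over all genes. limma called 0 of 68 members and 0 of all genes (0%), and 2 members had an unadjusted p under 0.05 (all genes 2.9%). Those 2 were Rpl39l at 0.26 ± 0.12 and Rplp0 at -0.37 ± 0.17 (adjusted p = 0.9998 for both). Rps27l at -0.35 ± 0.17, Rps19 at -0.33 ± 0.17 and Rpl35, a large subunit protein, at -0.30 ± 0.17 followed with the same adjusted p. With the culture number as a block limma also called 0 genes. There 7 members (10.3%) had an unadjusted p under 0.05, against 5.17% of all genes. The members move together, so these are not separate observations. Both within-diet effects are parts of this contrast, so its sign is no separate evidence.

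Maternal diet was compared next. In standard medium the median difference between undernourished and control offspring was 0.0003, with 35 of 68 genes higher. limma called 0 of 68 members and 0 of all genes (0%), and 0 members had an unadjusted p under 0.05 (all genes 3.14%). The smallest p-values belonged to Rps4l at -0.20 ± 0.11, Rplp1 at -0.13 ± 0.085, Rps13 at 0.23 ± 0.15, Rpl22 at -0.13 ± 0.088 and Rplp0 at 0.16 ± 0.12 (adjusted p = 0.9998 for each). The 95% intervals leave room for moderate differences, from -0.09 to 0.41 for Rplp0 and from -0.14 to 0.14 for Rps6.

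In limited medium 55 of 68 genes were lower in undernourished offspring, 37 of 38 among the bright genes, with a median of -0.09 over the family and 0.002 over all genes. limma called 0 of 68 members and 0 of all genes (0%), and 4 members had an unadjusted p under 0.05 (all genes 5.44%). Rps19 ran from 9.98 to 10.16 (median 10.14) in control and from 9.38 to 9.91 (median 9.76) in undernourished arrays, without overlap, a difference of -0.40 ± 0.12 (adjusted p = 0.894). Rpl39l ran from 5.29 to 5.75 (median 5.53) in control and from 5.72 to 6.04 (median 5.87) in undernourished arrays, which touch at their edge, a difference of 0.34 ± 0.081 (adjusted p = 0.894). Rps27l at -0.28 ± 0.12 and Rps10 at -0.17 ± 0.080 were the other two, and Rpl19, a large subunit protein, came next at -0.16 ± 0.077 (adjusted p = 0.894 for each). The control limited arrays enter this comparison and the medium comparison of control offspring alike, so both draw on the same 6 arrays.

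Over both media, with the arrays of each culture averaged, 49 of 68 genes were lower in undernourished offspring and the median was -0.06 (all genes 0.01). limma called 0 of 68 members and 0 of all genes (0%), and 2 members had an unadjusted p under 0.05 (all genes 3.57%). They were Rpl39l at 0.21 ± 0.069 and Rps19 at -0.23 ± 0.10, followed by Rpl22 at -0.14 ± 0.066, Rps10 at -0.13 ± 0.066 and Rpl19 at -0.11 ± 0.063 (adjusted p = 0.999 for each). Rpl3l minus Rpl3 differed between diets by -0.0008 and Rps27l minus Rps27 by -0.11 (exact permutation tests over culture means, adjusted p = 0.996 and 0.503).

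The genes with the largest spread over the 24 arrays were Rps20 (SD 0.78), Rps3a1 (0.52), Rps15, Rpl17 and Rps18, and their spread lay mostly within groups. Rps20, of the head of the small subunit, ran from 4.84 to 5.88 (median 5.29) in control standard and from 5.12 to 6.99 (median 6.32) in control limited arrays, and from 4.66 to 6.54 (median 5.05) and 4.66 to 7.09 (median 5.48) in undernourished arrays. Its medium difference of 0.69 ± 0.27 was the widest of the 68 (adjusted p = 0.138, higher in 9 of 12 cultures), and it passed without undernourished culture 9 (0.86, adjusted p = 0.0491). A second Rps20 probe set at a similar mean level of 5.61 gave 0.18. Rps3a1, also of the small subunit, fell into low and high arrays that did not follow the groups. Culture 1 was low in both media (10.30 standard, 9.96 limited), as was culture 11 (10.11 and 10.68), and cultures 12 and 24 were low in standard medium only (10.03 and 10.37), while every other array lay at 11.04 or above. Its medium difference was 0.14 ± 0.20 (adjusted p = 0.772). Rps15 (-0.04 ± 0.15), Rpl17 (-0.04 ± 0.15) and Rps18 (0.30 ± 0.13, adjusted p = 0.172) did not pass either.

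Of the 41 further one-gene probe sets of the members, 2 held the same values as a set already used and 5 repeated one another. Of the 34 distinct ones 25 were higher in limited medium over both diets, with a median of 0.09. Of 57 probe sets that members or other ribosomal protein symbols share with further genes, 50 were higher, with a median of 0.13. Many of these sets may detect the same transcripts as the members, so they are not independent of them.

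Genes linked to ribosomal proteins were read from lists, again over both diets, where 3.56% of all genes passed as higher and 3.28% as lower. Of 3 ribosome components outside the naming rule only Fau, which encodes Rps30 fused to a ubiquitin-like protein, was measured, at 0.25 ± 0.090 (adjusted p = 0.104). Of 17 translation factors and other coding genes with TOP starts, 2 rose and 0 fell, beside 6.84% of all genes called in either direction. These were Eif4b, a cofactor of the helicase that unwinds messenger RNA (0.29 ± 0.070, adjusted p = 0.0123, higher in 11 of 12 cultures), and Eef2, the translocation factor (0.15 ± 0.045, adjusted p = 0.0469, 12 of 12). The median of that list was 0.07. Eef1a1, the factor that delivers transfer RNA, differed by -0.002 ± 0.043. Of 6 noncoding host genes of small nucleolar RNAs 0 passed, with a median of 0.17.

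Of 9 chaperones and assembly factors of ribosomal proteins, 2 rose and 0 fell (all genes 3.56% and 3.28%, again not matched on level), with a median of 0.15. Nob1, the endonuclease that completes the 18S RNA, had 0.31 ± 0.080 (adjusted p = 0.0173), and Pdcd2l, a binding partner of Rps2, 0.30 ± 0.090 (adjusted p = 0.0421), both higher in 12 of 12 cultures. Of 11 regulators of ribosomal protein synthesis 2 rose and 0 fell, beside the same shares of all genes, and the median was 0.14. Maf1, a repressor of RNA polymerase III, had 0.60 ± 0.088 (adjusted p = 0.000228, 12 of 12 cultures). Its difference was 0.64 in control (adjusted p = 0.0213) and 0.56 in undernourished offspring (adjusted p = 0.0227). Ubtf, a factor for transcription of ribosomal RNA genes, had 0.33 ± 0.062 (adjusted p = 0.00189, 11 of 12). Mtor and Larp1 differed by -0.01 ± 0.081 and 0.07 ± 0.075, and Eif4ebp1, the translational repressor under mTOR control, by 0.36 ± 0.11 (adjusted p = 0.0595). In the 4 comparisons that involve maternal diet, 0 genes of these lists passed.

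The arrays carried transcripts of differentiated muscle, with the myotube markers Acta1 and Myh3 averaging 13.2 and 13.0. Some cell type markers moved with the medium, and their part in the small shift of the ribosomal protein genes was not tested. Of 15 markers of differentiated myotubes 14 were higher in limited medium and 2 rose (all genes 3.56%), Ckm (0.47 ± 0.12, adjusted p = 0.0170) and Tnni2 (0.49 ± 0.11, 0.00963). All 15 were brighter than the median gene, and 16.2% of genes at or above that level were called in either direction. Their mean level ran from 10.6 to 11.4 in control standard, 11.0 to 11.6 in control limited, 10.6 to 11.4 in undernourished standard and 10.9 to 11.5 in undernourished limited arrays. The 4 measured markers of proliferating cells were all lower in limited medium with a median of -0.49, and 0 passed. Their mean level ran from 5.49 to 6.28 and 5.42 to 6.08 in the control groups and from 5.31 to 7.97 and 5.23 to 6.05 in the undernourished groups. Of 6 satellite cell and myoblast markers, with 3.28% of all genes lower, only Vcam1 passed, and it fell (-0.45 ± 0.10, adjusted p = 0.00854). The list had no shared direction. Myf5 (0.48 ± 0.19, adjusted p = 0.135) and Des (0.12 ± 0.044, 0.0992) pointed upward, and Pax7 (-0.22), Cdh15 (-0.14) and Myod1 (-0.01) downward. Among 30 markers of fibroblasts, endothelial cells, leukocytes, smooth muscle, adipocytes and glia 0 passed, and endothelial, leukocyte and adipocyte lists stayed between 4.83 and 5.43 on all arrays. Fibroblast markers averaged a log2 level of 7.39 to 7.74 on the arrays of control culture 16 and undernourished culture 20 and 6.61 or less on the others, and glial markers averaged 7.47 to 7.66 in culture 20 and 5.79 or less on the others. Without those cultures 4 members passed over both diets (Rplp0, Rps3 and Rps7 higher and Rps23rg1 lower in limited medium), against 7.46% of all genes, and Rpl3l did not pass (limma log2 difference 0.28, adjusted p = 0.0684). The part of these cells in the results was not tested further.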

How the data were processed

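The authors deposited 1 log2 value per array for 41345 transcript clusters, made with RMA in Affymetrix Expression Console, per the submitters' processing notes. The sources used here name no versions, genome build or logarithm base, and the values, from 1.87 to 14.04 among tested genes, fit RMA's usual log2 scale. Clusters with exactly 1 symbol (23521) were named through the platform's annotation, with symbols updated through a RefSeq gene table (23328 matched), and the brightest cluster stood for each of 22180 genes. Detection calls were not used. Precision is limited by the number of arrays.

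All genes were fitted in limma 3.58.1 (R 4.3.3) with lmFit and eBayes over 24 arrays in 4 groups, or over 12 culture means for maternal diet over both media. P-values were two-sided and adjusted over all genes by Benjamini-Hochberg, with a threshold of 0.05. Errors of differences are standard errors. Paralogs were compared with their canonical genes within arrays by permutation over samples, 100000 shuffles for medium and exact enumeration for diet. The scripts were tested on simulated data. The labels do not say what a culture number is. Deviations of same-numbered arrays from their group means correlated over 0.1 in 6 of 6 control pairs, so for control offspring the fit with culture as a block is given beside the unpaired one, a choice made after both had been seen. For the medium over both diets, and for the difference of its effect between diets, the block fit is given as an alternative. That fit took in all 24 arrays, so its estimate of the spread also rests on the undernourished pairs.

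The members, gene lists, tests and alternatives were chosen with earlier results of these data known. Named genes are called members, the 5 smallest p-values where fewer than 5 were called, paralogs with their canonical genes, stalk genes, Rpl5, Rpl11, Rps6, Rpsa and the 5 members with the largest SD. Rps3, Rps7 and other genes shown by sequence or by correlation were chosen after their values were seen. Alternatives covered a culture block, quantile normalization, a filter on dim genes, the mean of all clusters, array weights, a threshold of 0.1, a number in the titles as covariate, and leaving out cultures 16 and 20 or each culture in turn.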

Additional observations from a re-analysis of the deposited data

Results flagged for a closer look

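In groups of 6 arrays, 12 of the 144 sets of values examined had 1 array standing apart from the other 5 (a gap to the nearest value of more than 0.625 of the range), and chance alone flags about 1 in 20 groups. The sets were the named genes and the family median in each group. Some of these genes were named for a large SD on these arrays. Sets on the same arrays also move together, so the 12 are not separate events. The arrays recur: undernourished culture 12 in standard medium was low for Rpl7 (10.65, others 10.87 to 11.00), Rps19 (9.04, others 9.71 to 9.88) and Rpl35 (10.92, others 11.39 to 11.66). Undernourished culture 1 in limited medium was low for Rps13 (8.47, others 8.85 to 9.00) and Rps3a1 (9.96, others 11.04 to 11.33), and high for Rpl22l1 (6.04, others 4.67 to 5.09) and Rpl39 (6.23, others 5.76 to 5.92). On that array the median deviation of the 68 genes was -0.17, against -0.001 to 0.08 on the others of its group. Control culture 15 in limited medium was low for Rpsa (10.89, others 11.19 to 11.33), and its median deviation over the 68 genes was -0.066, against 0.11 to 0.14. Control culture 16 in limited medium was low for Rpl17 (3.62, others 4.27 to 4.59), and undernourished culture 9 in standard medium was high for Rps20 (6.54, others 4.66 to 5.18). No cause was tested.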

How the results depend on the processing

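For the medium over both diets, where 1 member was called, beside 6.84% of all genes, the count was 2 after quantile normalization (all genes 7.06%), 9 when arrays were weighted by quality (9.46%), 8 at a threshold of 0.1 (10.5%), 4 without cultures 16 and 20 (7.46%), 5 with the title number as covariate (7.07%) and 1 with the mean of all clusters (6.72%). Among genes no dimmer than the median gene, which leaves out Rpl3l, 5 of 54 members were called, and 16.2% of all genes tested there. Leaving out each culture in turn gave 0 to 5 calls, and the 5 came without control culture 16 (6.73%) or undernourished culture 9 (7.12%). Without cultures 16 and 20 Rpl3l did not pass (adjusted p = 0.0684). In control offspring, with 0 called, the count was 3 with weighted arrays (Rplp0 and Rps3 higher, Rpl39l lower, all genes 1.24%) and 1 at the threshold of 0.1 (Rplp0, all genes 1.14%), and 0 to 0 when each culture was left out. Rpl3l minus Rpl3 over the media was 0.24 without cultures 16 and 20 (adjusted p = 0.2) and 0.23 to 0.34 when each culture was left out. The causes were not tested.

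With the culture number as a replicate block, 6 members were called over both diets (Rpl3l, Rpl34, Rplp0, Rps3, Rps7 and Rps19; 11.7% of all genes), 3 in control offspring (Rplp0, Rps7 and Rps19; 2.48%) and 0 elsewhere. Among undernourished cultures 4 of 6 pairs correlated over 0.1, so the block stayed an alternative there and over both diets. The block result for control offspring still draws its estimate of the spread from all 12 pairs. Over all 12 pairs the correlations ran from -0.05 to 0.56, and 10 pairs correlated best with their own number. The block changed no other call of a member or of a paralog difference. The block was not run for maternal diet over both media, which uses culture means.

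Where they were tested, Rpl3l and Rpl3l minus Rpl3 over both diets stayed above 0 under every setting. Differences that no test called did change sign, such as Rpl3l minus Rpl3 between diets (-0.05 to 0.04 when each culture was left out). The median of the 68 genes kept its sign under all 21 settings for the medium comparisons and for diet in limited medium, and was above 0 in 11 of 21 for diet in standard medium.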
